A study of Mus musculus with 12 samples.

Results

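Resident tissue macrophages of the mouse heart were followed through 10 marker genes: the complement C1q chains C1qa, C1qb and C1qc, the receptor Csf1r, the lysosomal protein Cd68, the surface protein Adgre1, the scavenger receptors Cd163 and Mrc1, the hyaluronan receptor Lyve1 and the phosphatidylserine receptor Timd4. The members were every probe set annotated with exactly 1 of these gene symbols, which gave 15 probe sets of 45101 on the array and 10 genes of 18193. A probe set is a group of short oligonucleotides on the array that report 1 transcript. C1qb and Csf1r had 3 probe sets each, Lyve1 had 2 and the other 7 genes had 1.

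The arrays measured total RNA of whole hearts from CD1 mice, of which one genotype expressed a dominant negative construct of the mitochondrial calcium uniporter (DN-MCU) and the other was wild-type littermates (WT). The adult hearts were taken at 42 days from mice labelled male, and the neonatal hearts at 1 day from mice of unknown sex. There were 3 arrays, labelled as biological replicates, for each genotype at each age, 12 in all. No treatment is listed, and the promoter that drives the construct and the number of founder lines are not given in the sources used here.

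Resident macrophages settle in the heart before and around birth and persist there largely by self-renewal, with monocytes from the blood adding to them. They depend on signalling through the receptor CSF1R, which binds the cytokines CSF1 and IL-34, and they clear dead cells, take up debris from cardiomyocytes and make the complement component C1q. In a whole heart they are a small share of the cells beside cardiomyocytes, endothelial cells and fibroblasts, and Lyve1 is also made by lymphatic endothelium.

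All values are log2 signals as deposited, so a difference of 1 is a doubling, and levels of different probe sets cannot be set against each other. The Mcu probe set 1442031_at read 8.44 to 10.41 on DN-MCU arrays and 2.45 to 4.55 on WT arrays, so every array matched its genotype label. Another Mcu probe set, 1453166_at, overlapped between genotypes, at 7.39 to 8.14 on DN-MCU arrays and 7.41 to 8.18 on WT arrays. The 12 cardiomyocyte markers read 12.79 to 15.93 on every array. The third DN-MCU adult array stood apart: its mean correlation with the other arrays of its group was 0.93, against 0.96 to 0.98 for the other adult arrays and 0.99 for the neonates. The first WT adult array deviated from its group in the same direction as that array (r = 0.579 between their deviations over all probe sets), so results are given without these arrays where they change.

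RefSeq promoters were at hand for 6 of the 10 markers. The 250 bases before the transcription start (GRCm38.p6) are shown for 5 of them because the C1q genes, Cd68 and Cd163 were higher in adults together, while Mrc1 did not pass the same test. The windows are chr4:136886201-136886450 and chr4:136892915-136893164 on the minus strand for the C1q genes, chr11:69666171-69666420 on the minus strand for Cd68, chr6:124304401-124304650 on the plus strand for Cd163 and chr2:14229164-14229413 on the plus strand for Mrc1. Capitals mark GAGGAA, the core of sites bound by PU.1, an ETS factor of myeloid cells, or its reverse complement TTCCTC; each sequence runs 5′ to 3′ towards the start site.
C1qb: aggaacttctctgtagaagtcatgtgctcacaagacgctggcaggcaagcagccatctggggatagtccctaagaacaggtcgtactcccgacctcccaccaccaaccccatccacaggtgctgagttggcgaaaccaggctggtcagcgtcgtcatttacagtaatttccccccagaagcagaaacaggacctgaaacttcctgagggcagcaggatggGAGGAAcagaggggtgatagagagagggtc
C1qc: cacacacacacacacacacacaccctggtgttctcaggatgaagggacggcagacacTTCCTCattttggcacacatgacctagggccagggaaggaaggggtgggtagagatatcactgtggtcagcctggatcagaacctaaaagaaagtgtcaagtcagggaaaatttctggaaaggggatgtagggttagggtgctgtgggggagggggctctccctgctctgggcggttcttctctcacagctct
Cd68: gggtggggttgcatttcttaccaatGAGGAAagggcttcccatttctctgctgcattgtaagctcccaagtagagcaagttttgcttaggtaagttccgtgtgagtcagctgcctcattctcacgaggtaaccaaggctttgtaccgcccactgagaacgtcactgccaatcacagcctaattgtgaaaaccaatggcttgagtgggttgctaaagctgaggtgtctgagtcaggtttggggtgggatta
Cd163: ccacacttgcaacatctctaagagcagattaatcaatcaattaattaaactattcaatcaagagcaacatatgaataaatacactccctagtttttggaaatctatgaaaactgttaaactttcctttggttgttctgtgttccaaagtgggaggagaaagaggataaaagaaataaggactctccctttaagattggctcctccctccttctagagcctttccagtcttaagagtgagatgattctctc
Mrc1: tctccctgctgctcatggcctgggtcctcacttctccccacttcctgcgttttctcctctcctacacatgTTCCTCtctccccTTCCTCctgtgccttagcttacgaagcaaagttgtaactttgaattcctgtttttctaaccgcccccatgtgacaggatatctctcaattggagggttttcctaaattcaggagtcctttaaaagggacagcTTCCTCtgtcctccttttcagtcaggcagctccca

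These letters were found in 4 of the 6 promoters, against 23.3% of 32851 mouse promoter windows of the same length. C1qb, C1qc and Cd68 held 1 match each and Mrc1 held 3, while Cd163 and Timd4 held none. The C1qc match lay within the longer form GAGGAAGT, which 2.44% of promoters hold. The match in C1qb began 30 bases before the start site and the nearest match in Mrc1 35 bases before it. C1qb, C1qc and C1qa are neighbours on chromosome 4 with 0 annotated genes between them. A match is a description of the letters and shows no binding.

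The first question was how the macrophage markers differ between the adult and the newborn heart. Of the 14 member probe sets that passed the filter on low signal, 11 were higher in WT adults than in WT neonates and 0 were lower, at an adjusted p under 0.05 (limma, Benjamini-Hochberg over 24176 probe sets). Over all probe sets tested 20.6% were higher and 24.4% lower in WT adults. The 11 covered 7 of 9 measured genes: C1qa, C1qb, C1qc, Csf1r, Cd68, Adgre1 and Cd163. The same 7 genes and 11 probe sets were higher in DN-MCU adults than in DN-MCU neonates, where 20.3% of all probe sets were higher and 25.7% lower. The age comparison in WT and that in DN-MCU share no arrays. By 1 probe set a gene, the median difference over the 9 member genes was 2.25 in WT and 2.78 in DN-MCU, against -0.16 and -0.17 over all 11807 genes. In whole hearts, more macrophages and more RNA of these genes per macrophage cannot be told apart, and age cannot be told apart from the sex that the labels give for adults alone.

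C1qa, C1qb and C1qc encode the 3 chains of C1q, the recognition part of the first complement complex, which macrophages make in most tissues. The C1qa signal was 10.72, 10.48 and 10.36 in WT adults and 10.74, 10.36 and 10.73 in DN-MCU adults. It was 7.81, 7.81 and 7.76 in WT neonates and 7.31, 7.81 and 7.45 in DN-MCU neonates. Every adult array lay above every neonatal array, and the genotypes overlapped at each age. The adult level exceeded the neonatal level by 2.73 (SE 0.17, n = 3 against 3, adjusted p = 7.90e-07 by limma) in WT and by 3.09 (SE 0.17, adjusted p = 3.56e-07) in DN-MCU. As a ratio this was 6.62-fold in WT and 8.51-fold in DN-MCU.

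C1qc followed the same order, with 9.28, 9.20 and 9.15 in WT adults and 9.24, 9.06 and 8.80 in DN-MCU adults. Its neonatal signals were 6.53, 6.84 and 6.65 in WT and 6.10, 6.53 and 6.12 in DN-MCU. No adult array overlapped a neonatal one, and the 3 WT adult arrays spread by an SD of only 0.065. The difference with age was 2.54 (SE 0.17, adjusted p = 1.04e-06 by limma) in WT and 2.78 (SE 0.17, adjusted p = 5.95e-07) in DN-MCU.

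C1qb was read by 3 probe sets, 2 of them of the type whose name ends in _x_at, which marks probes that may also bind other transcripts. The brightest, 1417063_at, read 10.19, 9.83 and 9.70 on the WT adult arrays and 9.97, 9.50 and 10.28 on those of DN-MCU adults. On the neonatal arrays it read 7.92, 7.99 and 7.89 in WT and 7.74, 7.83 and 7.51 in DN-MCU. Its age difference was 1.97 (SE 0.21, adjusted p = 2.76e-05 by limma) in WT and 2.23 (SE 0.21, adjusted p = 1.23e-05) in DN-MCU. The _x_at probe sets gave 1.70 and 1.61 in WT and 1.90 and 1.63 in DN-MCU, so all 3 probe sets had the same direction and passed the test in both genotypes.

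Csf1r encodes the receptor tyrosine kinase that macrophages need to survive, and its 3 probe sets also agreed in direction. The brightest, 1419872_at, read 11.48, 11.35 and 11.24 in WT adults and 11.72, 11.11 and 12.19 in DN-MCU adults. In neonates it read 9.22, 9.19 and 8.90 in WT and 8.86, 8.89 and 8.25 in DN-MCU. Adults and neonates were separated by more than the spread within any group, and the difference was 2.25 (SE 0.27, adjusted p = 6.51e-05 by limma) in WT and 3.01 (SE 0.27, adjusted p = 8.94e-06) in DN-MCU. The probe sets 1419873_s_at and 1423593_a_at gave 2.45 and 1.53 in WT and 2.90 and 2.32 in DN-MCU, all past the threshold.

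Of the ligands of CSF1R, Csf1 itself was higher in adults, by 2.20 (SE 0.28, adjusted p = 0.000117 by limma) in WT and by 2.41 (SE 0.28, adjusted p = 6.54e-05) in DN-MCU. Its brightest probe set, 1460220_a_at, read 10.08, 9.69 and 9.29 on the WT adult arrays, 9.35, 9.50 and 10.44 on those of DN-MCU adults and 7.17 to 7.57 on the 6 neonatal arrays. Il34 was below the filter and was not tested. Receptor and ligand were thus both higher in the adult hearts of each genotype.

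Cd68, a glycoprotein of macrophage lysosomes, read 7.38, 6.69 and 6.99 in WT adults and 6.88, 6.66 and 7.94 in DN-MCU adults. It read 4.07, 4.28 and 4.49 in WT neonates and 4.26, 4.11 and 4.12 in DN-MCU neonates. The third DN-MCU adult array was the highest of all 12, and every adult array was above every neonatal array. The age difference was 2.74 (SE 0.30, adjusted p = 4.13e-05 by limma) in WT and 3.00 (SE 0.30, adjusted p = 2.23e-05) in DN-MCU.

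Adgre1, an adhesion receptor that serves as a classical marker of mouse macrophages, read 8.45, 7.77 and 7.82 in WT adults and 8.61, 8.50 and 8.56 in DN-MCU adults. Its neonatal signals were 6.67, 6.74 and 6.64 in WT and 6.51, 6.53 and 5.98 in DN-MCU. The 4 groups did not overlap, in the order DN-MCU adult, WT adult, WT neonate and DN-MCU neonate, although the genotypes of one age did not pass the test against each other. With age Adgre1 was higher by 1.33 (SE 0.20, adjusted p = 0.000394 by limma) in WT and by 2.22 (SE 0.20, adjusted p = 1.24e-05) in DN-MCU.

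Cd163, the receptor through which macrophages take up haemoglobin bound to haptoglobin, had the largest estimated age difference of the 9 tested genes in both genotypes. It read 7.82, 7.87 and 8.46 in WT adults and 6.90, 8.33 and 6.69 in DN-MCU adults. In neonates it read 3.64, 4.41 and 4.01 in WT and 3.43, 3.20 and 4.41 in DN-MCU, close to the filter level of 3.35. The difference was 4.03 (SE 0.44, 16.4-fold, adjusted p = 4.19e-05 by limma) in WT and 3.62 (SE 0.44, 12.3-fold, adjusted p = 8.98e-05) in DN-MCU. Cd163 exceeded the filter level on 11 of 12 arrays and the other 13 member probe sets on all 12, so none of the 14 entered the test through one age alone.

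**Figure D1:**
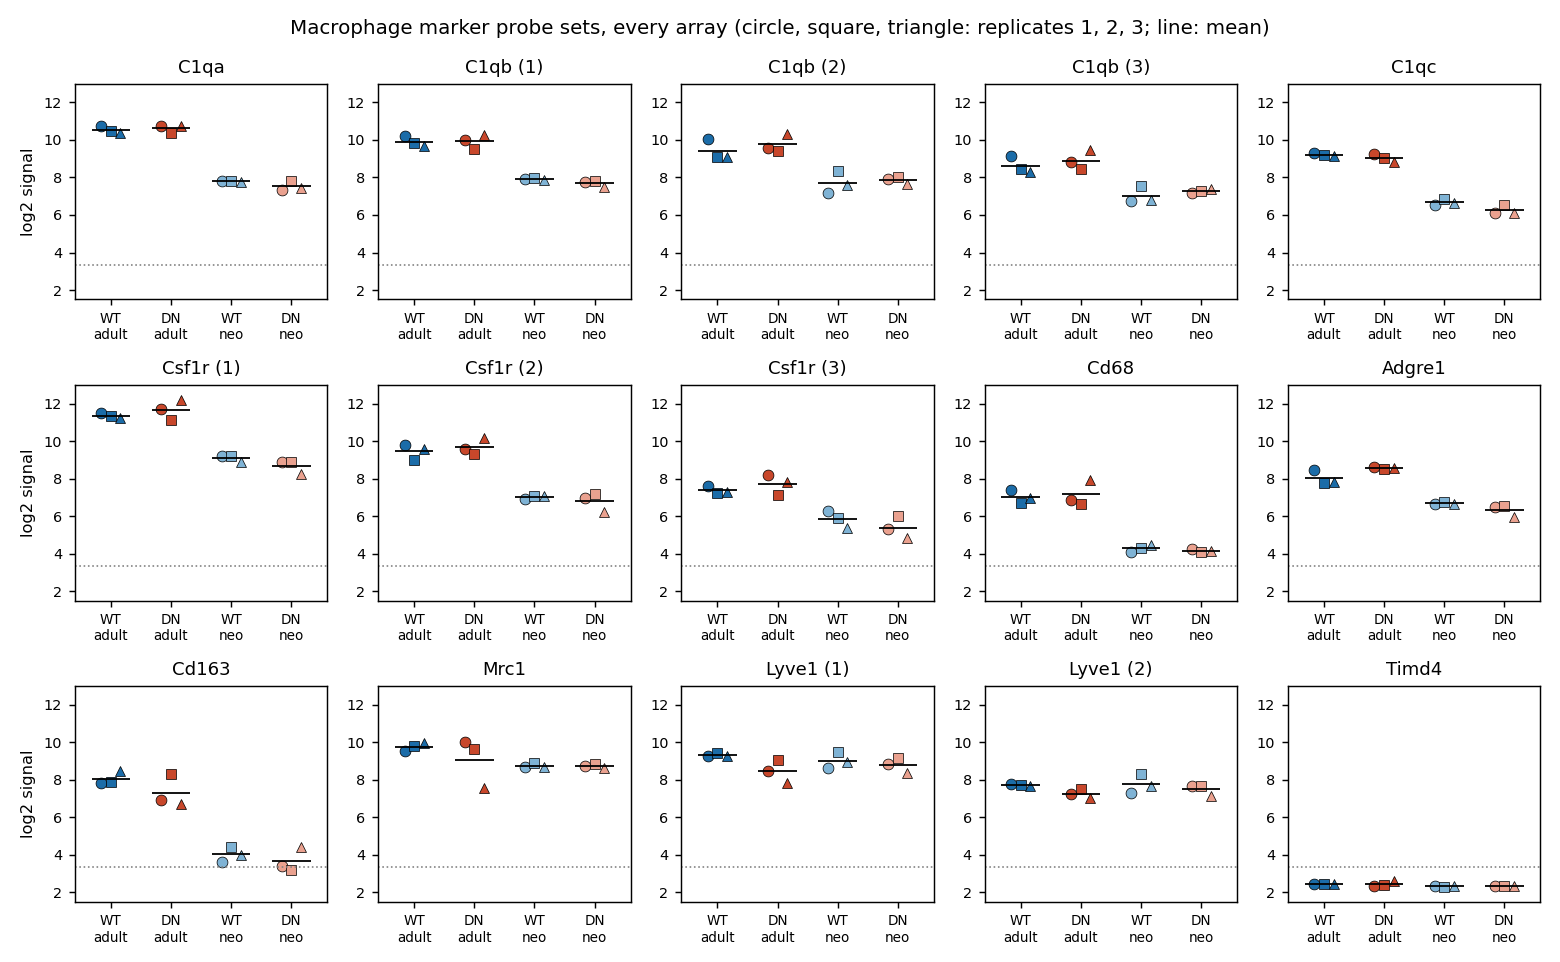
Log2 signal (y axis) of each of the 15 member probe sets on each of the 12 arrays, by group (x axis; neo, neonate; DN, DN-MCU); symbols mark replicates, black lines group means and the dotted line the filter level of 3.35. C1qb (1) to (3) are 1417063_at, 1437726_x_at and 1434366_x_at, Csf1r (1) to (3) are 1419872_at, 1419873_s_at and 1423593_a_at, and Lyve1 (1) and (2) are 1429379_at and 1453128_at; adults sit above neonates for C1q, Csf1r, Cd68, Adgre1 and Cd163, not for Lyve1, and Timd4 lies under the dotted line on every array.

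Mrc1 and Lyve1 did not follow this pattern in the fit to all 12 arrays. Mrc1, the mannose receptor, read 9.55, 9.81 and 9.95 in WT adults and 8.69, 8.92 and 8.67 in WT neonates, with no overlap. In DN-MCU hearts it read 9.99, 9.66 and 7.54 in adults and 8.76, 8.86 and 8.64 in neonates. The third DN-MCU adult array lay below every neonatal array, and the other 2 above them all. The WT age difference of 1.01 (SE 0.49) had an adjusted p of 0.119 by limma, with the spread estimated over all 12 arrays. With the WT groups compared alone the same difference had an SE of 0.15 and an adjusted p of 0.00193, and without the third DN-MCU adult array an adjusted p of 0.000229. In DN-MCU the difference was 0.31 (SE 0.49, adjusted p = 0.631) over all arrays and 1.07 (SE 0.16, adjusted p = 0.000426) without that array. The result for Mrc1 in both genotypes thus turned on 1 array.

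Lyve1, the hyaluronan receptor of a resident macrophage subset and of lymphatic vessels, overlapped between ages. Its brighter probe set, 1429379_at, read 9.27, 9.42 and 9.29 on the WT adult arrays and 8.46, 9.04 and 7.85 on those of DN-MCU adults. In neonates it read 8.64, 9.47 and 8.97 in WT and 8.84, 9.18 and 8.38 in DN-MCU. The age differences were 0.30 (SE 0.32, adjusted p = 0.473 by limma) in WT and -0.35 (SE 0.32, adjusted p = 0.382) in DN-MCU. The probe set 1453128_at gave -0.04 and -0.24, also short of the threshold. Neither passed under any of the 24 alternative settings.

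Timd4 encodes a receptor for phosphatidylserine on dying cells and marks long-lived resident macrophages. Its only probe set read 2.31 to 2.60 over all 12 arrays, under the filter level of 3.35, and was not tested. Its group means were 2.44 in WT adults, 2.45 in DN-MCU adults and 2.33 in both neonatal groups. At this signal a transcript at a low level cannot be separated from background.

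**Figure D2:**
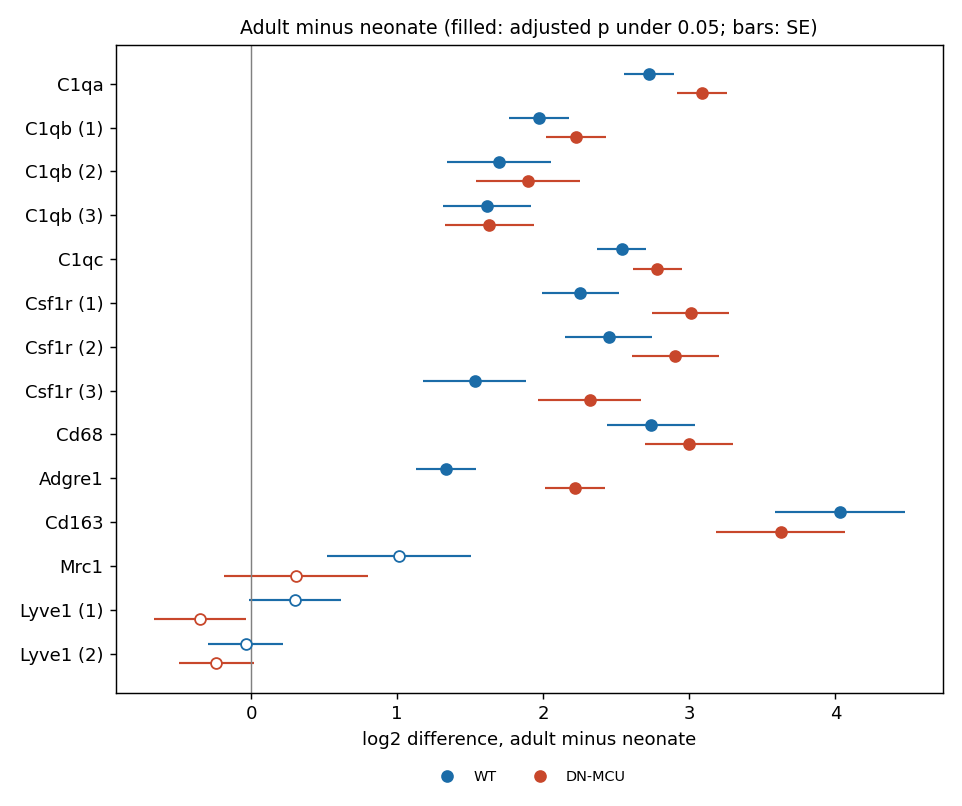
Adult minus neonatal log2 signal (x axis) of the 14 tested member probe sets (y axis, numbered as in the plot of signals by array) in WT and in DN-MCU; bars are standard errors from the fit to 12 arrays, and filled points have an adjusted p under 0.05. The 11 filled points in each genotype lie between 1.33 and 4.03, and the open points of Mrc1 and Lyve1 between -0.35 and 1.01.

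Other genes of macrophages showed more adult-high than adult-low members. Of the 17 tested genes of a second list for resident macrophages, 12 were higher in WT adults and 0 lower, and in DN-MCU 10 were higher and 0 lower. By 1 probe set a gene, 17.2% of all genes were higher and 27.8% lower in WT adults, against 17.6% and 29.1% in DN-MCU. For 5 of the 12 and 4 of the 10, the neonatal mean lay under the filter level of 3.35, so they entered the test mainly through adults and the size of their difference is not given. Their calls give no support of their own to these counts. Among these, Folr2, a folate receptor of resident macrophages, had adult means of 6.47 in WT and 6.18 in DN-MCU and neonatal means of 2.47 and 2.39. The lectin Mgl2 had adult means of 6.40 and 6.32 and neonatal means of 1.88 and 1.87. With both ages above that level, the carbonyl reductase Cbr2 was higher by 6.07 and 6.20, F13a1, a clotting factor chain that macrophages carry, by 2.50 and 2.03, and the scavenger receptor Stab1 by 1.05 and 1.24.

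Of 20 tested genes common to macrophages and other myeloid cells, 10 were higher and 2 lower in WT adults (median 0.86), and 12 were higher and 1 lower in DN-MCU adults (median 1.50). Lysozyme, Lyz2, was higher by 3.77 in WT and 3.78 in DN-MCU, and the endotoxin co-receptor Cd14 by 3.64 and 3.95. The Fc receptors Fcgr2b and Fcgr3 were higher by 2.24 and 2.18 in WT and by 1.74 and 2.53 in DN-MCU. The transcription factor Irf8 went the other way, lower in adults by 2.07 in WT (log2 difference -2.07, adjusted p = 0.00119 by limma) and with a difference of -1.58 in DN-MCU (adjusted p = 0.00620), or -1.05 without the second DN-MCU adult array.

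C1q acts with serine proteases that were measured on the same arrays. Among 12 other complement genes, 6 were higher and 1 lower in WT adults (median 1.03), and 7 were higher and 1 lower in DN-MCU adults (median 1.13). The proteases C1ra and C1s1, which complete the C1 complex, were higher by 3.22 and 3.89 in WT and by 3.44 and 3.76 in DN-MCU. Their inhibitor Serping1 was higher by 2.17 and 2.64. Itgb2, the beta chain of the receptors for complement C3 fragments, was higher by 1.92 and 2.36. Fibroblasts and other cells also make C1ra, C1s1 and Serping1, so these genes do not belong to macrophages alone. Cd93, which endothelial cells express, was the lower gene, with differences of -0.66 and -0.79.

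Genes of recruited monocytes were mixed in direction. Of 8 tested, 1 was higher and 2 lower in WT adults, and 2 were higher and 2 lower in DN-MCU adults. Ccr2, the receptor that brings monocytes into tissue, differed by 0.14 in WT (adjusted p = 0.768 by limma) and by -0.10 in DN-MCU (adjusted p = 0.824). The matrix gene Fn1 had differences of -1.99 and -1.86, past the threshold, and S100a4 was higher by 0.91 and 1.27. The chemokine Ccl2 was the other lower gene, with an adult mean of 3.08 in both genotypes, under the filter level, and neonatal means of 5.08 in WT and 4.54 in DN-MCU. Its DN-MCU difference of -1.46 (adjusted p = 0.00637 by limma) was -0.93 without the second DN-MCU neonatal array. The call was lost with the DN-MCU groups compared alone (adjusted p = 0.0511, or 0.0643 also without the arrays that stand apart) and with 1 variance per group (0.130).

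Markers of other cell types moved with age as well. The cardiomyocyte list had 7 of 12 genes higher and 0 lower in WT adults, with a median of 0.40. The endothelial list had 6 of 16 higher and 3 lower, the fibroblast list 3 of 10 higher and 5 lower, the epicardial list 0 of 10 higher and 6 lower, and the adipocyte list 4 of 6 higher and 0 lower. Of those 4 adipocyte genes, 3 had neonatal means under the filter level. The part of these cell types in the macrophage results was not tested.

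**Figure D3:**
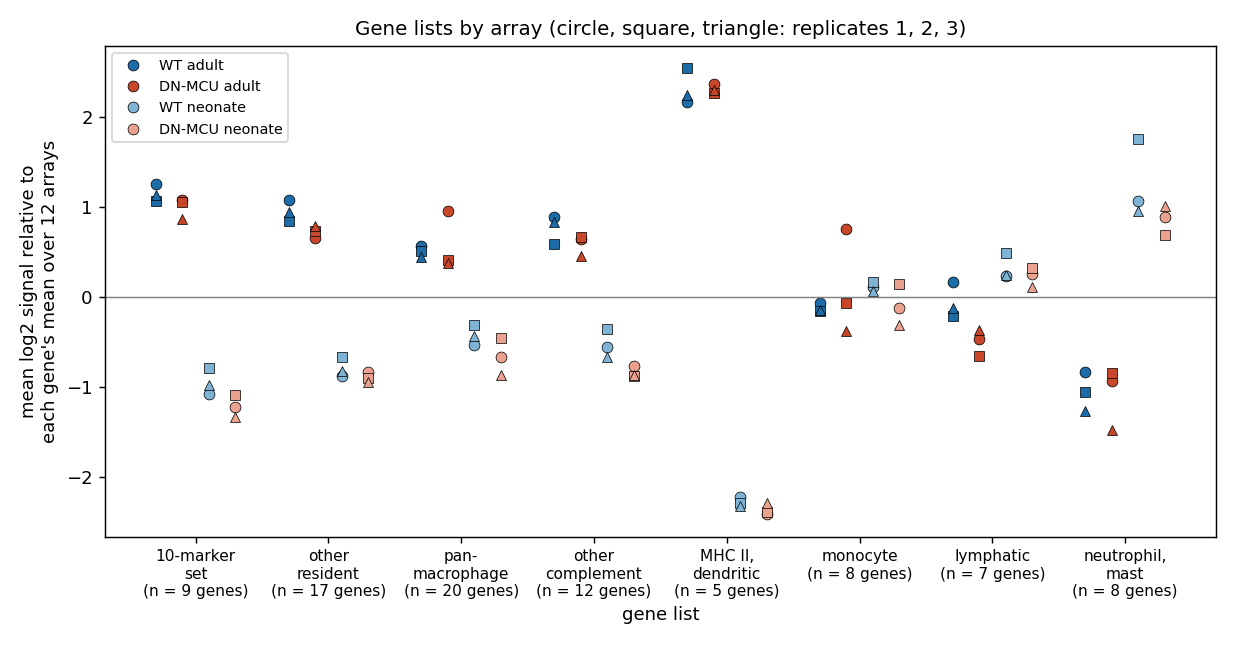
Mean over the tested genes of each list (x axis) of the log2 signal minus the mean of that gene over 12 arrays (y axis), 1 point an array. The members range from 0.87 to 1.26 in adults and from -1.33 to -0.79 in neonates, and the MHC class II and dendritic list from 2.17 to 2.54 and from -2.41 to -2.22, while the monocyte list overlaps between ages. Of the 5 genes of the MHC class II and dendritic list, 2 had neonatal means under the filter level.

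The second comparison asked whether the markers differ between DN-MCU and WT hearts of one age. In adults 0 of 14 member probe sets passed the test, against 4.77% of all probe sets (1152 calls, 636 with the replicate number of the paired neonates as a block, 112 with the adult groups compared alone). At an unadjusted p under 0.05 there were 2, for Lyve1 and Adgre1. The groups did not overlap for 3 of 14 probe sets, against 17.2% of all probe sets. The median over the 9 member genes was 0.01, beside 0.00 over all genes, so the members showed no common direction in adults.

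Adgre1 was higher on all 3 DN-MCU adult arrays than on any WT adult array. The difference was 0.54 (SE 0.20, 95% interval 0.086 to 0.992, adjusted p = 0.190 by limma). The smallest gap was between the second DN-MCU adult array at 8.50 and the first WT adult array at 8.45. Without that WT array the difference was 0.76 (adjusted p = 0.0415), and without it and the third DN-MCU adult array it was 0.76 (adjusted p = 0.0281). The call for Adgre1 in adults thus depended on which arrays were kept. It passed in only 2 of 24 alternatives, both without the first WT adult array. It did not pass with the adult groups compared alone (adjusted p = 0.501 by limma). Nor did it pass with 1 variance per group (0.740) or the block of neonatal replicate numbers (0.263).

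Lyve1 was lower on all 3 DN-MCU adult arrays than on any WT adult array with both probe sets. The differences were -0.88 (SE 0.32, 95% interval -1.58 to -0.18, adjusted p = 0.161 by limma) for 1429379_at and -0.45 (SE 0.26, adjusted p = 0.405) for 1453128_at. The former was -0.58 without the third DN-MCU adult array and passed, at -1.18 (adjusted p = 0.0449), without the second DN-MCU adult array. That probe set passed in only 1 of 24 alternatives. Among 7 lymphatic endothelial markers, 2 were lower in DN-MCU adults and 0 higher, against 1.69% of all genes lower and 3.42% higher. These were Reln, a secreted glycoprotein, at -1.15 (SE 0.20, adjusted p = 0.00814) and Mmrn1, a multimerin, at -1.51 (SE 0.35, adjusted p = 0.0351). With the adult groups compared alone neither passed (adjusted p = 0.177 and 0.325), and with the block of neonatal replicate numbers Reln passed (0.0352) and Mmrn1 did not (0.100). Without the third DN-MCU adult array the Mmrn1 difference was -0.97 (adjusted p = 0.000804), and Mmrn1 passed in 8 of 23 alternatives. Summed as the list mean, the lymphatic markers were at -0.65 to -0.36 in DN-MCU adults and at -0.21 to 0.17 in WT adults. The endothelial list had 0 calls in adults, with 12 of 16 genes below 0 and 4 above (median -0.20). Lyve1 marks lymphatic vessels too, and the part of either list in its values was not tested.

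Reln read 6.71, 6.97 and 6.64 in WT adults and 5.79, 5.14 and 5.95 in DN-MCU adults. Mmrn1 read 7.21, 7.27 and 7.38 in WT adults and 6.35, 6.29 and 4.70 in DN-MCU adults. Both were without overlap, as for Lyve1, and the third DN-MCU adult array held the lowest Mmrn1 and Lyve1 signals of the group, but the highest Reln signal. Prox1, the transcription factor that defines lymphatic endothelium and is also expressed in cardiomyocytes, differed by -0.60 (adjusted p = 0.0927 by limma). The other 4 markers overlapped between genotypes, with differences of 0.54 for Foxc2, -0.20 for Pdpn, -0.11 for Itga9 and -0.01 for Flt4, so the lymphatic list did not have 1 direction.

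Several adult differences changed when the third DN-MCU adult array was left out. The Mrc1 difference was -0.71 (SE 0.49, adjusted p = 0.515 by limma) with it and 0.05 without it, and that of Cd163 was -0.75 (SE 0.44, adjusted p = 0.432) with it and -0.44 without it. Csf1r moved from 0.32 to 0.06, Cd68 from 0.14 to -0.25, and the C1qb probe sets 1417063_at and 1434366_x_at from 0.01 to -0.17 and from 0.26 to -0.02. None of these passed the test in either form. Cd163 and Csf1r moved the other way, to -1.26 and 0.60, without the second DN-MCU adult array, and did not pass there either. The adult 95% intervals were -0.29 to 0.47 for C1qa and -0.55 to 0.19 for C1qc, so a difference of 1 on the log2 scale lay outside them. For Cd163, at -1.73 to 0.24, and Mrc1, at -1.80 to 0.38, a difference of -1 lay inside. For C1qb the interval was -0.44 to 0.47 with 1417063_at, but -0.42 to 1.16 with 1437726_x_at, which holds a difference of 1.

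Of the other macrophage lists, 1 gene passed in adults; over all genes 1.69% were lower in DN-MCU adults. The lectin Clec10a was lower in DN-MCU adults, with a difference of -1.83 (SE 0.43, adjusted p = 0.0356 by limma). Its signals overlapped between the genotypes in adults, and it passed in only 7 of 23 alternatives. It did not pass with the adult groups alone (0.325), the block of neonatal replicate numbers (0.100) or 1 variance per group (0.155). The 20 pan-macrophage genes and the 12 complement genes had 0 calls, with 2 and 3 at an unadjusted p under 0.05. By sign, 13 of 17 genes of the second resident macrophage list were below 0 (median -0.23), as were 8 of 12 complement genes. Of the pan-macrophage genes 12 of 20 were above 0, beside 50.3% of all genes. These signs share the same 6 arrays and were not tested. Il1b, the cytokine interleukin 1 beta in the monocyte list, was higher by 1.37 (SE 0.19, adjusted p = 0.00258) and had an adjusted p of 0.116 with the adult groups alone and of 0.0152 with the block.

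In neonates 0 of 14 member probe sets differed between genotypes, against 0.0165% of all probe sets (4 calls, 0 with a block of the neonatal numbers). At an unadjusted p under 0.05 there was 1, C1qc, at -0.42 (SE 0.17, 95% interval -0.79 to -0.056), with an adjusted p of 1.00 by limma. By sign, 12 of 14 probe sets and 9 of 9 genes were below 0, with a gene median of -0.27, while 59% of all genes were above 0. All 3 DN-MCU neonatal arrays lay below all 3 WT neonatal arrays for 4 of 14 probe sets, those of C1qc and Adgre1 and the brightest of C1qb and Csf1r, against 5.13% of all probe sets. These signs share the same 6 arrays. Lists of other cell types and genes had the same sign: 10 of 10 epicardial genes (median -0.81), 10 of 10 fibroblast genes (median -0.05), 12 of 12 complement genes, 8 of 8 monocyte genes and 7 of 8 neutrophil and mast cell genes were below 0, with 0 past the test. Of the pan-macrophage genes 19 of 20 were below 0 (median -0.22). In other lists most genes were above 0: 8 of 9 proliferation, 4 of 6 adipocyte, 3 of 5 MHC class II and dendritic and 9 of 16 endothelial genes. The negative sign was thus shared with some lists and not with others, and the part of these lists in the members' values was not tested.

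The neonatal differences were -0.27 (SE 0.17) for C1qa, -0.24 (SE 0.21) for C1qb, -0.44 (SE 0.27) for Csf1r and -0.34 (SE 0.20) for Adgre1. The third DN-MCU neonatal array was the lowest of its group for all 3 Csf1r probe sets, at 8.25, 6.22 and 4.84, and for Adgre1, at 5.98. The _x_at probe sets of C1qb had the opposite sign, 0.17 (SE 0.36) and 0.24 (SE 0.30). Mrc1 differed by -0.0007 (SE 0.49). None of them passed the test under any of the 24 alternatives.

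**Figure D4:**
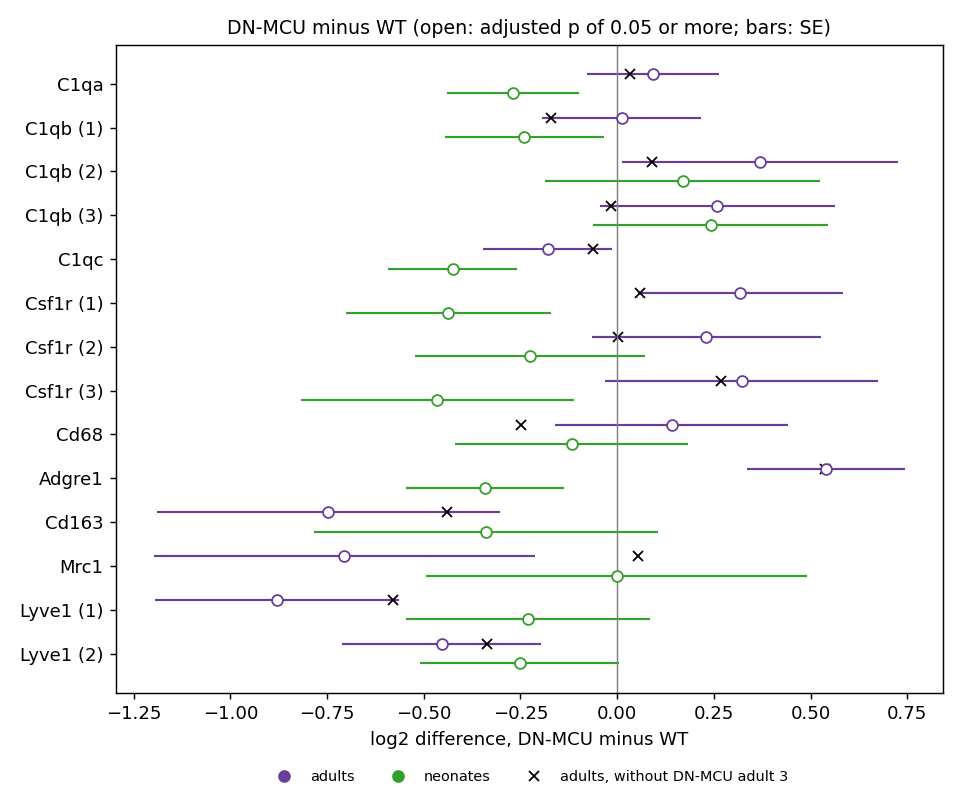
DN-MCU minus WT log2 signal (x axis) of the 14 tested member probe sets (y axis, numbered as in the plot of signals by array) in adults and in neonates, with standard errors; crosses give the adult value without the third DN-MCU adult array. Every point is open, since no adjusted p was under 0.05, and the crosses for Mrc1, Cd68, C1qb (1) and C1qb (3) lie on the other side of 0 from their circles.

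The difference between the neonatal and the adult genotype effect, which equals the difference between the age effects of the genotypes, was tested for each probe set. None of the 14 passed, against 0.786% of all probe sets (190 calls, 71 with the block of neonatal replicate numbers), and 1 had an unadjusted p under 0.05. This was Adgre1, with an effect of 0.54 in adults and -0.34 in neonates and a difference of -0.88 (SE 0.29, 95% interval -1.52 to -0.24, adjusted p = 0.302 by limma). It passed with array weights (-0.98, adjusted p = 0.0444) and without the first WT adult array and the third DN-MCU adult array (-1.10, adjusted p = 0.0366). Those were the only 2 of 22 alternatives in which it passed. Csf1r had the next largest difference by p, -0.76 (SE 0.38, adjusted p = 0.605).

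Within groups the markers did not vary as one. Each array's deviation from its group mean was compared between genes over the 12 arrays, by the brightest probe set a gene; these correlations share arrays and normalization and are given without a test. C1qb and Csf1r deviated together (r = 0.90, and 0.82 without the third DN-MCU adult array), as did C1qa and C1qb (0.76 and 0.79). C1qb and Cd68 gave 0.77 with that array and 0.56 without it. The neighbours C1qa and C1qc gave 0.48 with it and 0.79 without it, and C1qb and C1qc 0.03 with it and 0.59 without it.

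Cd163 ran against Csf1r and C1qb, but not against every marker. Its deviations had an r of -0.87 with Csf1r and -0.81 with C1qb, and of -0.86 and -0.77 without the third DN-MCU adult array. With C1qc, Mrc1 and Lyve1 the r was -0.02, 0.37 and 0.38, and -0.35, -0.23 and 0.15 without that array. On the second DN-MCU adult array Cd163 was 1.02 above its group mean while Csf1r was 0.57 below its own, and on the third DN-MCU neonatal array Cd163 was 0.73 above and Csf1r 0.42 below (deviation -0.42). The opposition of Mrc1 and Cd68 (r = -0.85) came down to -0.25 without the third DN-MCU adult array, on which Mrc1 deviated by -1.52 and Cd68 by 0.78.

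**Figure D5:**
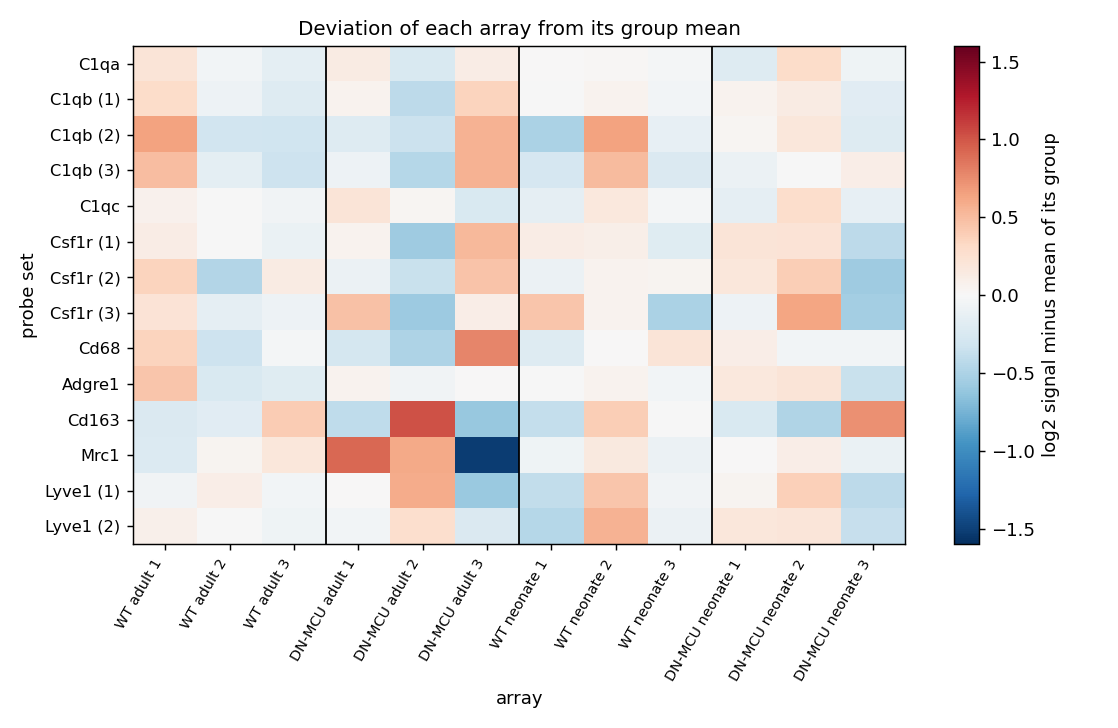
Log2 signal of each array (x axis) minus the mean of its group, as colour, for the 14 tested member probe sets (y axis, numbered as in the plot of signals by array). The third DN-MCU adult array is at -1.52 for Mrc1 and at 0.78 for Cd68, and the second is at 1.02 for Cd163 and at -0.57 for the brightest Csf1r probe set.

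The mean of C1qa, C1qb and C1qc, of which C1qb and C1qc deviated together little over all 12 arrays, was set against the deviations of all 11798 other genes over the 12 arrays. The closest was Ctsd, the lysosomal protease cathepsin D, with an r of 0.962 (0.971 without the third DN-MCU adult array). It was followed by the isoleucyl-tRNA synthetase Iars (0.945), Klhl25 (0.937), the kinetochore gene Zw10 (0.934), Hikeshi (0.932), which imports heat shock proteins into the nucleus, and AI467606 (0.929). The C1q mean itself deviated by only -0.21 to 0.23 within groups. Each gene was taken here by its probe set of highest r, and the 6 are the highest of 11798 genes. Selection alone thus raises these values, and no test was made. Of these 6 genes, Ctsd and AI467606 were also higher in adults of both genotypes, by 1.01 and 1.86 in WT and by 1.58 and 2.79 in DN-MCU, whereas Klhl25 and Hikeshi passed in neither.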

How the data were processed

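Whole-heart RNA (500 ng per sample) was labelled as biotinylated cRNA and read on 12 single-colour Affymetrix arrays, per the labels' protocols. The authors deposited 1 table of log2 signals for 45101 probe sets, normalized before deposit; the log2 scale was inferred here, the algorithm is not given, and the submitters' processing notes name Partek. The 64 control probe sets were removed, and 24176 probe sets with at least 3 of 12 values above 3.35 (the median of all values) were analysed. The annotation table named 1 gene for 34945 probe sets, several for 932 and none for 9160. With limma 3.58.1 in R 4.3.3, 4 group means were fitted to all 12 arrays, and moderated tests of 5 comparisons were adjusted by Benjamini-Hochberg over all probe sets tested (threshold 0.05); the method was tested on simulated data. The array number limits precision: with 3 arrays a group, p-values of the main fit rest on a spread pooled over all 12 arrays. That spread was not equal between groups. Median SDs within groups were 0.40 (adult) and 0.14 (neonatal) for DN-MCU arrays, and 0.23 and 0.13 for WT arrays. Pooling can thus make standard errors too small for the adult genotype comparison and too large for the neonatal one. Genes of lists are represented by the probe set of highest mean. Named genes were all members, and up to 6 genes of each other list by smallest adjusted p among those past the threshold, with ligands of CSF1R; Prox1, Ccr2, the other lymphatic markers without a call, Rag1 and Ms4a1 were chosen after their values were seen. The members and the 17 other lists were chosen with earlier results of these data known. Same-numbered neonatal arrays deviated together (r = 0.133, 0.223 and 0.283 over all probe sets) and adult ones did not (-0.381, 0.41 and -0.428), so only the neonatal numbers were taken to pair arrays, from this check and not from the labels. Alternatives covered the groups fitted, array weights, scaling, the filter, moderation, the block and each array left out. Promoters were read from a RefSeq table.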

Additional observations from a re-analysis of the deposited data

How the results depend on the processing

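The 11 member probe sets higher in adults passed under all 24 alternatives in both genotypes, including the replicate block (11 of 14 each) and the neonatal replicate block added after seeing the data (11 each); with either block 0 members differed between genotypes, and the block changed no call of a member. In adults the count of members higher in DN-MCU was 1 with the arrays that stand apart left out and 0 to 1 with each replicate left out in turn, and the count of those lower was 0 to 1. For the difference of genotype effects the count of lower members was 1 with array weights and 1 with the arrays that stand apart left out. Over the 24 alternatives (22 for the difference), 3 of 335 member values gained a call in adults, 0 of 335 in neonates, 2 of 307 for the difference, 6 of 335 for age in WT and 4 of 335 for age in DN-MCU (Mrc1 alone in both age comparisons); no member lost a call. The lymphatic gene Mmrn1 reversed: its age difference in DN-MCU was -0.25 over all arrays (-0.54 to 0.29 with each array left out in turn) and 0.29 without the third DN-MCU adult array, alone (adjusted p = 0.0497 by limma) or with the first WT adult array (0.0317). Subtracting array medians moved the median of all probe sets by -0.13 in the WT and -0.15 in the DN-MCU age comparison, and no member changed direction past the threshold. Over all probe sets the adult genotype comparison gave 1152 calls, 568 with the replicate block, 297 with 1 variance per group and 3140 with the arrays that stand apart left out. Signals near the filter level, as for Timd4, bound what these arrays can show.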

Other observations

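Genes of antigen presentation were higher in adults. All 5 tested genes of the MHC class II and dendritic list were higher in WT adults, with a list median of 5.33, and 4 of 5 in DN-MCU adults. H2-Aa, the alpha chain of an MHC class II molecule, was higher by 6.14 in WT and 6.86 in DN-MCU, and H2-Eb1 by 5.33 and 5.46 (all with an adjusted p of at most 9.04e-07 by limma). The neonatal means of Cd74, the invariant chain that escorts these molecules, and of H2-Ab1 lay under the filter level of 3.35, at 2.82 and 3.31 in WT and 2.97 and 3.05 in DN-MCU, so the size of their difference is not given. Their adult means were 8.56 and 8.29 in WT and 8.31 and 8.64 in DN-MCU. The calls of Cd74 and H2-Ab1 give no support of their own to the counts of this list. The list median of 5.33 includes both genes. Over all genes, by 1 probe set a gene, 17.2% were called higher with age in WT and 17.6% in DN-MCU. Itgax, Flt3 and Xcr1, genes of dendritic cells, lay below the filter, as did H2-DMa, Ciita, Cd209a and Batf3 of the same list. Among genes of iron handling the haptoglobin gene Hp, whose product delivers haemoglobin to CD163, had a mean of 9.07 in WT adults against 2.90 in WT neonates, under the filter level. The iron exporter Slc40a1 was lower in WT adults than in WT neonates (difference -1.26, adjusted p = 0.00294 by limma). In DN-MCU its means were 7.82 in adults and 8.52 in neonates, and 0 of 6 tested iron genes were called lower.

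Neutrophil and mast cell markers went the opposite way from the macrophage markers. Of 8 tested, 6 were lower in adults of each genotype and 0 higher. The calprotectin gene S100a8 had adult minus neonatal differences of -4.93 in WT and -4.47 in DN-MCU, and Kit, the receptor of mast cells and progenitors, of -2.59 and -2.85. S100a9, the partner of S100a8, had a WT adult mean of 2.94, under the filter level, and a WT neonatal mean of 8.28. The mast cell gene Cma1 also had adult means under that level, at 2.46 in WT and 2.54 in DN-MCU. The WT call of S100a9 and both calls of Cma1 give no support of their own to the count of 6. All 9 proliferation genes were also lower in WT adults, and 4 of them, among them the checkpoint kinase gene Bub1 at 2.58 against 9.16 in WT neonates, had WT adult means under the filter level. The calls of those 4 likewise give no support of their own to the count.

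The first DN-MCU adult array had values unlike the other adults for lists outside the members. Its mean for the proliferation list was -0.81, against -3.12 to -2.94 on the other 5 adult arrays, and for the monocyte list 0.76, against -0.38 to -0.07. Of 18 T and B cell genes 2 were tested, with adult genotype differences of 2.04 (SE 1.46, adjusted p = 0.526 by limma) for Rag1 and -0.60 (adjusted p = 0.144) for Ms4a1. The first DN-MCU adult array's mean for the members was 1.08, within the adult range of 0.87 to 1.26.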
